A study of Mus musculus with 48 samples.

Results

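This report describes how overexpression of Mettl3 changed gene expression on day 15 of reprogramming, relative to an empty vector. All genes that reached 1 FPKM (fragments counted per transcript, scaled to its length and to the size of the library) in at least 3 of the 6 libraries concerned were taken, which gave 11963 of the 24010 genes in the deposited table. Mettl3 OE held 3 libraries of mouse embryonic fibroblasts (MEFs) in which doxycycline at 1 µg/ml had driven the 4 reprogramming factors Oct4, Sox2, Klf4 and Myc (OSKM) for 15 days together with added Mettl3, and Control OE held 3 libraries of the same cells with OSKM and the empty vector. All of these cells carried the Rosa26-M2rtTA transactivator, the inducible OSKM cassette and the Oct4-GFP reporter, and all were kept in medium with leukaemia inhibitory factor. The 3 Mettl14 OE libraries of the same day, from cells with OSKM and added Mettl14, entered the same fit, and the whole series held 48 libraries in 16 groups, with MEFs and the same 3 arms on days 3, 6, 9 and 12 as well. Cultures were lysed whole and not sorted, so fewer cells of a type and less RNA per cell cannot be told apart in any value below. The sources used here do not say whether the replicates came from separate cultures, so the p-values measure only the spread between these libraries.

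METTL3 is the catalytic subunit of the complex that places N6-methyladenosine (m6A) on messenger RNA, and METTL14 is the partner that holds the RNA in place. m6A marks are read by YTH-domain and other proteins and are known to speed the decay of many transcripts, among them messages of pluripotency factors in embryonic stem cells. During reprogramming, fibroblasts first lose mesenchymal genes, then take on epithelial genes, and only late, and in few cells, turn on their own pluripotency genes such as Nanog, Dppa5a and Lin28a. Cells that fail on this path can arrest and secrete cytokines, a state called the senescence-associated secretory phenotype (SASP).

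On day 15 the genes of late pluripotency were lower in Mettl3 OE than in Control OE cultures. So were several genes of DNA methylation, among them Uhrf1 and Dnmt1 but not the de novo methyltransferase gene Dnmt3a. Several imprinted growth genes, the chemokine gene Cxcl12, and genes of DNA replication and ribosome assembly were lower as well. A smaller group was higher, with the cytokine genes Il6 and Cxcl2, the cyclooxygenase gene Ptgs2, the transcription factor gene Cebpd, and a set of epithelial and S100 genes. Values were compared on the log2(FPKM + 1) scale with limma, and a gene was called when FPKM + 1 differed at least 1.5-fold with a Benjamini-Hochberg adjusted p under 0.05 over all genes tested. By this rule 42 genes were higher (0.351% of those tested) and 171 were lower (1.43%) in Mettl3 OE. Without the fold threshold, 327 genes were higher (2.73%) and 1458 lower (12.2%), and where "passed" is used below it means this adjusted p alone. All 3 Mettl3 OE libraries lay above all 3 Control OE libraries in 924 genes (7.72%) and below them in 3333 (27.9%), which is the background for each gene below whose groups did not overlap.

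The balance between higher and lower genes depended on how libraries were scaled. The median log2 difference over all genes tested was -0.08 with FPKM as deposited and 0.00 after median-ratio scaling, which sets the typical gene equal across libraries. After that scaling 74 genes were called higher and 117 lower, so that the share of called genes that were higher was 38.7%, against 19.7% with FPKM as deposited, and the adjusted p alone passed 1157 higher (9.67%) and 1166 lower (9.75%). Called in both scalings were 41 of the 42 higher genes and 111 of the 171 lower genes, and no gene called in one direction had the opposite sign under any alternative tried. Group counts below are for FPKM as deposited, with those after median-ratio scaling in the same paragraph.

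**Figure D1:**
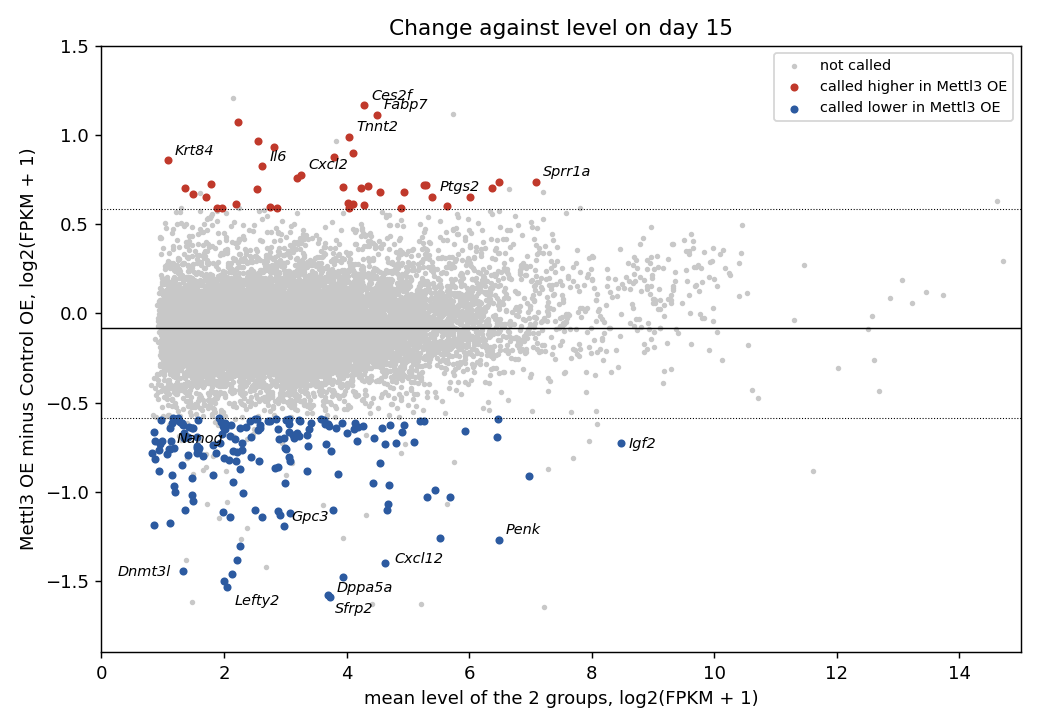
Each point is a gene on day 15. The horizontal axis is the mean level of both groups as log2(FPKM + 1), the vertical axis the difference Mettl3 OE minus Control OE on the same scale, dotted lines mark a 1.5-fold difference and the solid line marks the median of all genes, -0.08. The 42 genes called higher (red) lie at low to middle levels and the genes called lower (blue, 1 of the 171 without a usable symbol not drawn) reach further from the line; 14 genes lie beyond the vertical axis, of which Mettl3 and Snora62 were called.

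The libraries of both groups were similarly close between replicates but differed in the number of genes detected. The depth, estimated from the spacing of the lowest FPKM values, was 18.3 to 25 M fragments in Mettl3 OE and 23.7 to 27.4 M fragments in Control OE. Between 11709 and 11806 genes reached 1 FPKM in Mettl3 OE libraries and between 11925 and 12059 in Control OE libraries, ranges that did not overlap. Replicates correlated across genes at r = 0.983 to 0.990 in Mettl3 OE and 0.978 to 0.985 in Control OE. Small RNAs, whose FPKM values are unreliable in poly(A) libraries, made up 35.6% to 39.6% of the FPKM sum in Mettl3 OE and 30.6% to 37.4% in Control OE. Reads of an added gene and of its own locus are summed in these values, as are those of the OSKM cassette and the cells' own factor genes.

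The overexpressed gene matched the labels. Mettl3 stood at 1078, 1358 and 1218 FPKM in the Mettl3 OE libraries, against 4.44, 4.64 and 5.21 FPKM in Control OE, a log2 difference of 7.72 (SE 0.10, limma adjusted p = 7.19e-18). Its partner Mettl14 had 4.49, 4.93 and 4.48 FPKM in Mettl3 OE and 5.34, 4.81 and 5.80 FPKM in Control OE, groups that overlapped and did not pass (log2 difference -0.16, limma adjusted p = 0.199). Of 9 genes of the m6A writer complex and related methyltransferases, Mettl3 passed as higher and 2 passed as lower (2 and 2 after median-ratio scaling), Mettl16, which methylates U6 snRNA, with a log2 difference of -0.34 and Rbm15b, a recruiting subunit, also with -0.34. Among 14 demethylases and readers of the mark, 0 passed as higher and 3 as lower in both scalings. Shares of all genes that passed were 2.73% higher and 12.2% lower (9.67% and 9.75% after median-ratio scaling). The 3 included Igf2bp1, a reader that stabilises its targets. It had 4.84, 4.68 and 4.25 FPKM in Mettl3 OE, against 6.83, 5.85 and 7.26 FPKM in Control OE (log2 difference -0.45, SE 0.09, limma adjusted p = 0.00391).

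The 4 reprogramming factors differed little. Pou5f1, which encodes Oct4, stood at 130.1, 145.3 and 136.7 FPKM in Mettl3 OE, against 173.8, 181.8 and 181 FPKM in Control OE, and was the one of the 4 that passed (log2 difference -0.38, SE 0.09, limma adjusted p = 0.0126). All 3 Mettl3 OE libraries lay below the Control OE libraries. Sox2, Klf4 and Myc had log2 differences of -0.18, -0.18 and -0.15, with adjusted p of 0.194, 0.186 and 0.250, and after median-ratio scaling -0.08, -0.08 and -0.05. On day 3 all 4 factors had passed as higher, Sox2, Klf4 and Myc by 0.57, 0.61 and 0.53 and Pou5f1 by 0.66, at 120.1 ± 16.2 FPKM in Mettl3 OE and 75.6 ± 8.94 FPKM in Control OE (SD, n = 3 each, limma adjusted p = 0.00491).

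Of 27 pluripotency genes listed, 17 were tested, 0 passed as higher and 12 passed as lower, where 12.2% of all genes passed as lower. Their median log2 difference was -0.78, against -0.08 for all genes tested, and after median-ratio scaling 11 passed as lower with a median of -0.71. The summed FPKM of all 27 listed genes was 60.8, 71.2 and 62.8 in the Mettl3 OE libraries and 110.7, 102.0 and 118.9 in the Control OE libraries, with no overlap. Since 4 of the 17 reached 1 FPKM in Control OE libraries alone, which selects for a difference, all 27 were also read without the filter on low values. In that fit 18 of 27 passed as lower and 0 as higher, against 6.01% and 1.16% of all 19287 genes, and 26 of the 27 had a lower mean in Mettl3 OE.

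The largest of these differences was in Dppa5a, which encodes an RNA-binding protein of embryonic stem cells. It stood at 4.64, 7.41 and 4.94 FPKM in Mettl3 OE, against 20.4, 17.6 and 18.4 FPKM in Control OE (log2 difference -1.59, SE 0.16, limma adjusted p = 0.000329). The groups were far apart, the highest Mettl3 OE library lying well below the lowest of Control OE. Lefty2, a secreted inhibitor of Nodal signalling, had 0.896, 1.15 and 1.32 FPKM in Mettl3 OE, against 5.597, 5.499 and 4.376 FPKM in Control OE (log2 difference -1.54, SE 0.16, adjusted p = 0.000304). Tdgf1, the Nodal co-receptor also called Cripto, had 1.46, 1.75 and 1.43 FPKM in Mettl3 OE, against 5.30, 4.49 and 7.40 FPKM in Control OE (log2 difference -1.38, SE 0.27, adjusted p = 0.0181). Both members of the Nodal pathway were thus lower in every Mettl3 OE library than in any Control OE library, although Tdgf1 lost its call without Mettl3 OE replicate 1 or 3 or Control OE replicate 1 or 3 (adjusted p up to 0.0766).

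Nanog, a core factor of the pluripotent state, was near the lower limit of detection. It had 0.701, 0.498 and 0.555 FPKM in Mettl3 OE, against 1.38, 1.37 and 2.39 FPKM in Control OE (log2 difference -0.76, SE 0.15, limma adjusted p = 0.00713). The Control OE libraries spread more than those of Mettl3 OE, 1 of them standing clearly above the others. Lin28a, which blocks the maturation of let-7 miRNAs, had 0.384, 0.346 and 0.195 FPKM in Mettl3 OE, against 1.88, 1.17 and 3.10 FPKM in Control OE (log2 difference -1.17, SE 0.22, adjusted p = 0.00917). Fbxo15, an Oct4 target used as an early reporter of reprogramming, had 0.751, 0.954 and 0.807 FPKM in Mettl3 OE, against 2.41, 2.54 and 3.24 FPKM in Control OE (log2 difference -1.02, SE 0.11, adjusted p = 5.06e-05). Nanog, Lin28a and Fbxo15 reached 1 FPKM in Control OE libraries alone. For such genes the filter fixes in advance that the groups do not overlap, so nothing is drawn from that. Lin28a lost its call only without Mettl3 OE replicate 3 (adjusted p = 0.0518).

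Trim71, a let-7 target that promotes stem cell proliferation, and Tdh, the threonine dehydrogenase on which mouse embryonic stem cells depend, fell by 0.63 and 0.78 on the log2 scale (adjusted p = 0.00236 and 0.00248). The members that did not pass were Tfcp2l1, Klf5, Klf2, Fgf4 and L1td1. L1td1, an RNA-binding protein of pluripotent cells, had 22.3, 22.9 and 22.7 FPKM in Mettl3 OE and 22.7, 22.9 and 22.4 FPKM in Control OE, groups that overlapped completely. Fgf4 differed by 0.07 on the log2 scale (SE 0.10). Of the members under the filter, Esrrb, an orphan nuclear receptor of the naive state, had 0.151, 0.343 and 0.259 FPKM in Mettl3 OE, against 1.36, 0.917 and 1.51 FPKM in Control OE (log2 difference -0.85, adjusted p = 0.0092 in the fit without the filter). Zfp42, also called Rex1, had 0.103, 0.295 and 0.025 FPKM in Mettl3 OE and 0.475, 0.253 and 0.593 FPKM in Control OE, groups that overlapped and did not pass (adjusted p = 0.0863).

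**Figure D2:**
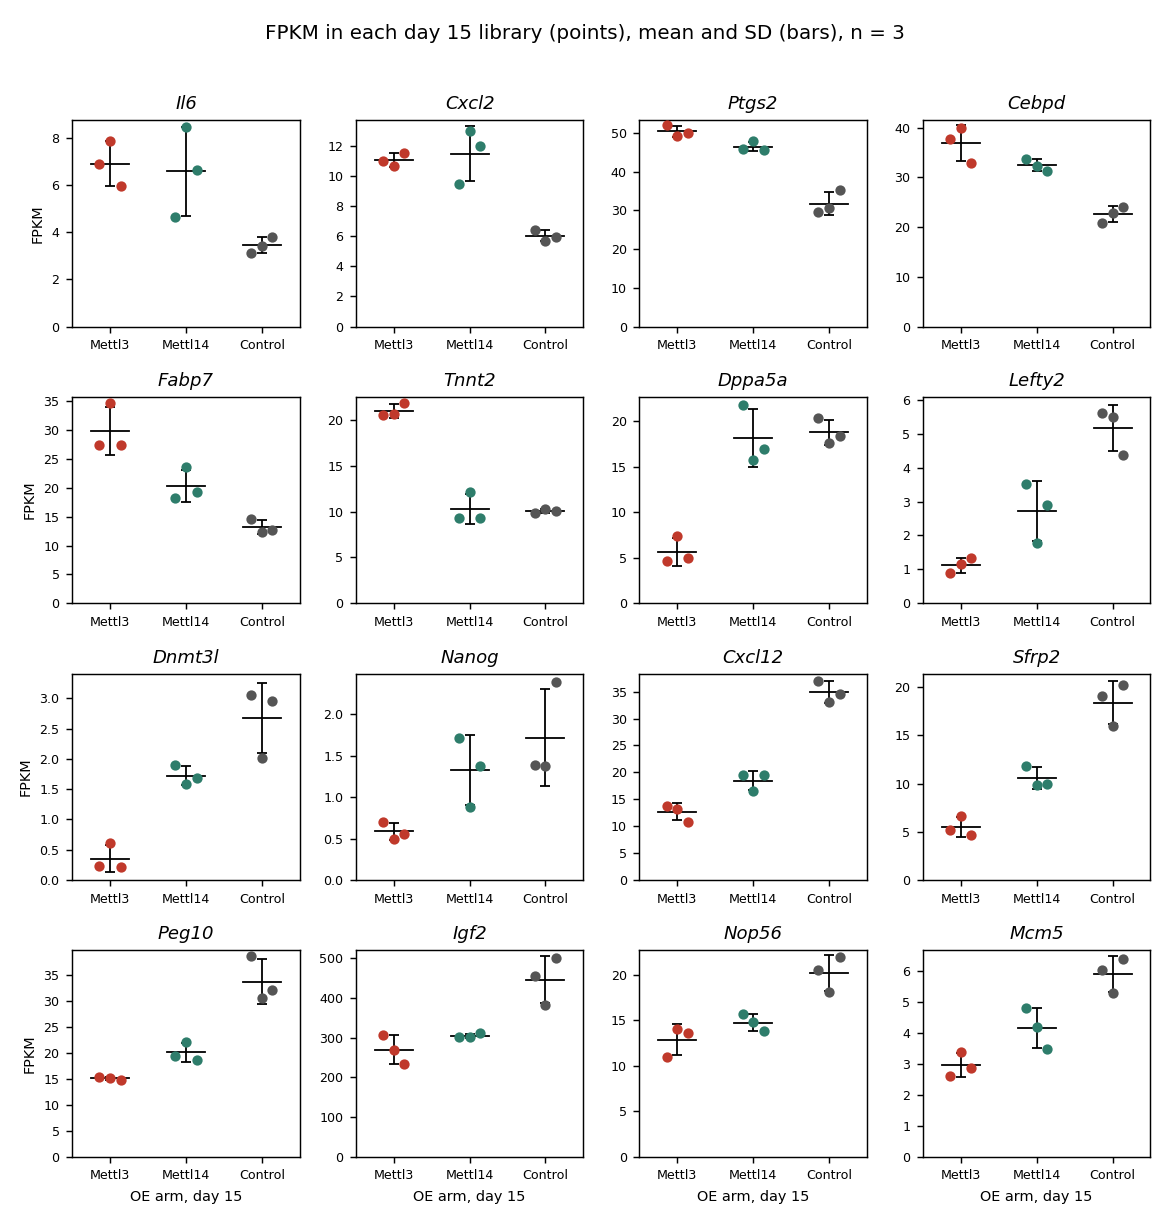
FPKM of 16 genes in each day 15 library (points; red Mettl3 OE, green Mettl14 OE, grey Control OE), with the mean and SD of 3 libraries as bars. Il6, Cxcl2, Ptgs2, Cebpd, Fabp7 and Tnnt2 lie higher in Mettl3 OE than in Control OE, the other 10 genes lower, and for Tnnt2 and Dppa5a the Mettl14 OE points lie beside those of Control OE.

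Genes for DNA methylation were lower as well. Of 8 listed, 5 passed as lower and 0 as higher, in both scalings, with a median log2 difference of -0.55. All genes passed as lower in 12.2% of cases and as higher in 2.73% (9.75% and 9.67% after median-ratio scaling). The list shares Dnmt3l with the pluripotency list. Dnmt3l, the cofactor of de novo methylation, had 0.225, 0.608 and 0.218 FPKM in Mettl3 OE, against 3.06, 2.01 and 2.96 FPKM in Control OE (log2 difference -1.44, SE 0.13, limma adjusted p = 1.77e-05). Dnmt3b, a de novo methyltransferase, had 0.549, 0.614 and 0.424 FPKM in Mettl3 OE, against 2.03, 1.65 and 2.58 FPKM in Control OE (log2 difference -1.0, SE 0.12, adjusted p = 0.000207). Tet1, which oxidises methylated cytosine and so acts the other way, fell together with them, at 0.567, 0.514 and 0.526 FPKM in Mettl3 OE, against 1.57, 1.51 and 1.90 FPKM in Control OE (log2 difference -0.79, SE 0.11, adjusted p = 0.000422). Dnmt3l, Dnmt3b and Tet1 reached 1 FPKM in Control OE libraries alone. The maintenance genes Uhrf1 and Dnmt1, which were well above that level in both groups, fell by 0.76 and 0.35 on the log2 scale (adjusted p = 0.000335 and 0.014), whereas Tet2 differed by 0.00 (SE 0.07) and Dnmt3a by -0.15 (SE 0.08, adjusted p = 0.212).

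Imprinted genes, which are expressed from 1 parental allele and control fetal growth, were lower in part. Of 20 tested, 8 passed as lower and 0 as higher, with a median of -0.31, where 12.2% and 2.73% of all genes did. After median-ratio scaling 7 passed as lower and 1 as higher, where 9.75% and 9.67% of all genes did. Igf2, the fetal growth factor, was the most abundant of those that passed, at 306.9, 267.4 and 233.8 FPKM in Mettl3 OE, against 456.0, 381.5 and 500.4 FPKM in Control OE (log2 difference -0.72, SE 0.12, limma adjusted p = 0.00194). Peg10, a retrotransposon-derived gene needed in the placenta, had 15.3, 15.2 and 14.8 FPKM in Mettl3 OE, against 38.6, 30.5 and 32.1 FPKM in Control OE (log2 difference -1.10, SE 0.09, adjusted p = 4.92e-06). Cdkn1c, a CDK inhibitor of the imprinted cluster beside Igf2, had 14.04, 13.81 and 13.2 FPKM in Mettl3 OE, against 28.5, 28.4 and 25.4 FPKM in Control OE (log2 difference -0.95, SE 0.09, adjusted p = 1.77e-05). Each of these genes was lower in all 3 Mettl3 OE libraries, and the Mettl3 OE libraries of Peg10 and Cdkn1c agreed within a narrow range. Plagl1, a zinc-finger regulator of imprinted genes, and Mest, a hydrolase, fell by 1.12 and 1.13 (adjusted p = 9.8e-05 and 0.00043), and Dlk1, a Notch ligand of progenitor cells, fell by 1.48 (SE 0.24, adjusted p = 0.00849). H19, the noncoding RNA next to Igf2, had a log2 difference of -0.43 (SE 0.14) that did not pass (adjusted p = 0.0554).

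Few genes of the extra-embryonic lineages could be tested. Of 6 trophoblast markers tested, 4 passed as lower and 0 as higher with a median of -0.72 (3 lower and 1 higher after median-ratio scaling), and of 5 primitive endoderm markers 3 passed as lower and 0 as higher in both scalings. Since Gata4 and Lama1, 2 of these 5, had reached 1 FPKM in Control OE alone, the lists were also read without the filter, where 2 of 11 primitive endoderm and 3 of 13 trophoblast markers passed as lower and 0 as higher, against 6.01% and 1.16% of all genes. With a filter on the mean of the 6 libraries 1 of 4 and 4 of 7 passed as lower. Nrk, a kinase of the placenta, had 3.26, 2.33 and 2.24 FPKM in Mettl3 OE, against 7.75, 6.49 and 5.94 FPKM in Control OE (log2 difference -1.10, SE 0.12, limma adjusted p = 7.9e-05). Tpbpa, a marker of the spongiotrophoblast, had 2.06, 1.05 and 0.852 FPKM in Mettl3 OE, against 6.96, 5.63 and 3.61 FPKM in Control OE (log2 difference -1.46, SE 0.28, adjusted p = 0.0157). Rhox9, a homeobox gene of the reproductive Rhox cluster, fell by 1.30 (SE 0.33, adjusted p = 0.0438), a call lost without any 1 of Mettl3 OE replicates 2 and 3 and the 3 Control OE libraries (adjusted p up to 0.146), and Tpbpa lost its call without Mettl3 OE replicate 2 or 3 or Control OE replicate 1 (adjusted p up to 0.0616). Gata4, an endoderm factor, fell by 0.88 (SE 0.15, adjusted p = 0.00326) and Gata6 by 0.42 (SE 0.13, adjusted p = 0.0418). The trophoblast factors Cdx2 and Eomes stayed under 1 FPKM in all 6 libraries and Gcm1 was listed at 0 in them. Elf5, another such factor, had 7.27, 8.13 and 8.67 FPKM in Mettl3 OE and 7.55, 7.01 and 7.34 FPKM in Control OE. Its groups overlapped (log2 difference 0.12, adjusted p = 0.333), and it was the marker that passed as higher after median-ratio scaling (0.21, adjusted p = 0.048). Gata3 did not pass, and Tfap2c fell by 0.33 (adjusted p = 0.0435).

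Secreted signals and matrix genes made up much of the rest of the largest decreases. Cxcl12, the chemokine that holds stem cells in their niche, had 13.8, 13.3 and 10.9 FPKM in Mettl3 OE, against 37.0, 33.0 and 34.5 FPKM in Control OE (log2 difference -1.40, SE 0.10, limma adjusted p = 6.35e-07). Sfrp2, a secreted Wnt antagonist, had 5.23, 6.68 and 4.63 FPKM in Mettl3 OE, against 19.03, 15.95 and 20.21 FPKM in Control OE (log2 difference -1.58, SE 0.12, adjusted p = 4.92e-06). Its relative Sfrp1 had 14.8, 17.9 and 13.6 FPKM in Mettl3 OE, against 35.8, 26.0 and 39.6 FPKM in Control OE (log2 difference -1.07, SE 0.14, adjusted p = 0.000785). None of these genes overlapped between the groups, and in Sfrp1 the Control OE libraries spread most. Of 16 tested genes of a Wnt pathway list, 5 passed as lower and 0 as higher (3 and 0 after median-ratio scaling). Over all genes 12.2% and 2.73% did so (9.75% and 9.67% after that scaling). All but Sfrp1 and Sfrp2 passed by less than 0.5 on the log2 scale, and the list median was -0.03. The list is not complete, since the Wnt ligand gene Wnt7a is not on it and was called higher (log2 difference 0.71, limma adjusted p = 7.9e-05).

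Penk, which encodes an enkephalin precursor, fell by 1.27 (SE 0.20, adjusted p = 0.00406), to 51.9 ± 8.86 FPKM in Mettl3 OE against 125.4 ± 6.53 FPKM in Control OE (SD, n = 3 each). Gpc3, a heparan sulphate proteoglycan that restrains growth, fell by 1.19 (SE 0.10, adjusted p = 5.16e-06), with 4.34, 3.77 and 3.26 FPKM in Mettl3 OE and 10.9, 10.1 and 8.83 FPKM in Control OE. Trh, the precursor of thyrotropin-releasing hormone, fell by 1.5 (SE 0.24, adjusted p = 0.00668), and Mybl2, a cell cycle transcription factor, by 1.11 (SE 0.14, adjusted p = 0.000521). Ptn, a heparin-binding growth factor, Egfl6, a matrix protein, and Fmo1, a flavin monooxygenase, fell by 1.26, 1.14 and 1.14 (adjusted p = 0.0294, 0.0321 and 0.00615). The call of Ptn was lost without any single library other than Control OE replicate 3 (adjusted p up to 0.0926), and that of Egfl6 without Mettl3 OE replicate 1 or Control OE replicate 2 or 3 (adjusted p up to 0.113).

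Among the genes that were higher, the inflammatory ones formed the most recognisable group. Il6, the cytokine that signals through gp130, had 6.87, 7.87 and 5.95 FPKM in Mettl3 OE, against 3.10, 3.43 and 3.78 FPKM in Control OE (log2 difference 0.83, SE 0.17, limma adjusted p = 0.0111). Cxcl2, a neutrophil chemokine, had 11, 10.63 and 11.5 FPKM in Mettl3 OE, against 6.42, 5.70 and 5.95 FPKM in Control OE (log2 difference 0.78, SE 0.10, adjusted p = 0.000243). Ptgs2, the inducible cyclooxygenase, had 52.11, 49.27 and 49.97 FPKM in Mettl3 OE, against 29.5, 30.6 and 35.3 FPKM in Control OE (log2 difference 0.65, SE 0.08, adjusted p = 0.000286). All 3 genes were higher in every Mettl3 OE library than in any Control OE library, and Il6 varied most between replicates, its adjusted p reaching 0.0535 without Control OE replicate 1.

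The promoters of 2 of these cytokine genes and of 2 of the lowered genes are shown. Those of Il6, Cxcl2 and Nanog carry the letters of binding motifs for factors known to act on them, NF-kB for the cytokines and Oct4 for Nanog. That of Sfrp2 is shown only for its match of octamer letters, and no factor is taken to act on it. The windows run from 250 bases before to 50 bases after the RefSeq start site on GRCm38.p6, a different build from the mm9 of the deposited values, and capitals mark the matches. Il6 (chr5:30012864-30013163, plus strand) holds GGGATTTTCC 44 to 35 bases before the start, and Cxcl2 (chr5:90903649-90903948, plus strand) holds GGGAATTTCC at 97 to 88 and GGGCTTTTCC at 78 to 69 bases before it. Nanog (chr6:122707239-122707538, plus strand) holds TTTGCAT 75 to 69 bases before the start, and Sfrp2 (chr3:83766071-83766370, plus strand) holds ATTTGCAT 47 to 40 bases before it.
Il6: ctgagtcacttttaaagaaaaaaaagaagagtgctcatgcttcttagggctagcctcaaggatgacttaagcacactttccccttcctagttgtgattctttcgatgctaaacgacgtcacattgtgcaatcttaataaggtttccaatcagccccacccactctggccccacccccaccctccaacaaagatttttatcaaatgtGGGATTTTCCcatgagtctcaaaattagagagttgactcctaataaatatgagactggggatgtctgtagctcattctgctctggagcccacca
Cxcl2: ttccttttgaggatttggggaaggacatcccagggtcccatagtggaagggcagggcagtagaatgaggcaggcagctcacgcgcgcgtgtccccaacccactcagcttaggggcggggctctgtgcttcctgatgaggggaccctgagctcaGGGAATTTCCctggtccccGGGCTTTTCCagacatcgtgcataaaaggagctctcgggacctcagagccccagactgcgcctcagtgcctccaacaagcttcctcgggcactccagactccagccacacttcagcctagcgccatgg
Nanog: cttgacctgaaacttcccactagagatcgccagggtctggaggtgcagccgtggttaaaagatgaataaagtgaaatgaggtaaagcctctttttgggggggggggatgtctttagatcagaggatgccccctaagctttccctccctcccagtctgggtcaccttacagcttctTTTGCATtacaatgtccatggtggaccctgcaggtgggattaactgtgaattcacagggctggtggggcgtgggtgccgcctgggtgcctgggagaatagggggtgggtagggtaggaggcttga
Sfrp2: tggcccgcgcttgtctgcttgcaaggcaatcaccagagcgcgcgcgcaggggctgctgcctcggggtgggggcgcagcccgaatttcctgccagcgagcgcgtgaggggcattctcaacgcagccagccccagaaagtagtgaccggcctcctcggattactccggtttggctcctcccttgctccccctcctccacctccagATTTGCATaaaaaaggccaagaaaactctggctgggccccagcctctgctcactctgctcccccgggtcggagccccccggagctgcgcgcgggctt
The NF-kB-type letters searched were GGG, any 2 bases, TT, any base and CC, on both strands, found in 4.79% of all 32851 promoters in the table, in 5.58% of those of the genes tested, in 4 of 36 of the genes called higher (11.1%), in 10 of 149 of those called lower (6.71%) and in 12 of 29 of the NF-kB target list (41.4%). The octamer letters searched were TTTGCAT on both strands, which lie inside the longer ATTTGCAT, found in 4.63% of all promoters, in 3.44% of those of the genes tested, in 13 of 149 of the genes called lower (8.72%) and in 2 of 36 of those called higher (5.56%). In the pluripotency list 2 of 13 promoters held them (15.4%), and none held the longer form. Both are start sites of Nanog, so no other of the 10 genes of that list with a promoter held a match. Further chosen genes were searched and are not shown. Of these, Cxcl1 held NF-kB-type letters, whereas no such match was found for Ptgs2 or Cxcl12. No octamer match was found for Tdgf1, Dnmt3l or Utf1. Promoters were in the table for 31 of the 42 genes called higher and for 118 of the 171 called lower, and a match of letters is a description of the window, not a site shown to be bound.

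The 33 tested NF-kB targets divided. Of these, 8 passed as higher and 2 as lower (2.73% and 12.2% of all genes), with a median log2 difference of 0.12, and after median-ratio scaling 13 passed as higher and 2 as lower. Cebpd, a C/EBP-family factor induced in inflammation, had 37.7, 39.99 and 32.96 FPKM in Mettl3 OE, against 20.8, 22.9 and 24.0 FPKM in Control OE (log2 difference 0.68, SE 0.09, limma adjusted p = 0.000304). Ccl7, a monocyte chemokine, had 55.1, 68.3 and 53.4 FPKM in Mettl3 OE, against 38.1, 41.6 and 35.4 FPKM in Control OE (log2 difference 0.60, SE 0.10, adjusted p = 0.00179). Ccl2, its neighbour and the major monocyte attractant, had 118.7, 132.2 and 138.4 FPKM in Mettl3 OE, against 100.9, 87.6 and 86.9 FPKM in Control OE. It passed with a log2 difference of 0.50 (SE 0.10, adjusted p = 0.00391), under the fold threshold, and was called after median-ratio scaling at 0.60. The call of Ccl7 was lost without Mettl3 OE replicate 2 or Control OE replicate 3, at 0.49 and 0.54, with library weights or a length and GC correction, and in fits over 18 or all 48 libraries (adjusted p up to 0.0673).

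Cxcl1, the closest relative of Cxcl2 on the list, had 83.5, 81.3 and 66.1 FPKM in Mettl3 OE and 61.6, 59.0 and 56.3 FPKM in Control OE (log2 difference 0.37, SE 0.10, adjusted p = 0.0231), so that it passed without overlap but under the fold threshold. The 2 members that passed as lower were Cxcl5 and Icam1. Cxcl5, a neutrophil chemokine of epithelial cells, had 8.20, 11.1 and 7.98 FPKM in Mettl3 OE, against 15.5, 14.6 and 24.3 FPKM in Control OE (log2 difference -0.90, SE 0.20, limma adjusted p = 0.0229), and was called in both scalings. Icam1, the adhesion molecule that NF-kB induces, had 3.63, 3.96 and 3.96 FPKM in Mettl3 OE, against 6.31, 4.90 and 6.10 FPKM in Control OE (log2 difference -0.48, SE 0.10, adjusted p = 0.00638). Both were lower in every Mettl3 OE library than in any Control OE library. Ccl12, a monocyte chemokine that is not on the list, had 0.164, 0.140 and 0 FPKM in Mettl3 OE, against 1.91, 1.34 and 1.30 FPKM in Control OE (log2 difference -1.19, SE 0.27, adjusted p = 0.0248), and had reached 1 FPKM in Control OE alone. Its call was lost without any single library other than Control OE replicate 2 (adjusted p up to 0.105). Ccl12 was thus lower in all 3 Mettl3 OE libraries while the chemokine genes beside Ccl12, Ccl2 and Ccl7, were higher. For the 8 genes tested singly, among them the 6 chemokine and cytokine genes of this comparison, an exact two-sided permutation test over 3 against 3 libraries gave p = 0.1, the smallest it allows, except for Mettl14 (p = 0.2).

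Of 57 SASP genes tested, a list that shares these cytokines, 9 passed as higher and 8 as lower with a median of 0.02. Over all genes 2.73% passed as higher and 12.2% as lower, so the lower count of the list was near that share. After median-ratio scaling 16 and 8 passed, where 9.67% and 9.75% of all genes did. Angptl4, a lipoprotein lipase inhibitor, and Igfbp3, an IGF-binding protein, fell by 0.61 and 0.55 (adjusted p = 0.00249 and 0.00262), on the same list on which Cxcl2 rose. Of 16 senescence regulators 0 passed as higher and 3 as lower (4 and 3 after median-ratio scaling, with a median of 0.03 in place of -0.06), among them Lmnb1, the nuclear lamin lost in senescent cells, which fell by 0.65 (SE 0.10, adjusted p = 0.000803), and Trp53, which encodes p53, which fell by 0.57 (SE 0.10, adjusted p = 0.00289). Cdkn1a, the CDK inhibitor p21, had 173.5, 185.3 and 160.6 FPKM in Mettl3 OE and 153.7, 159.1 and 168.3 FPKM in Control OE, groups that overlapped (log2 difference 0.11, SE 0.09, adjusted p = 0.433). Cdkn2a, from which p16 and Arf are made, had 104.3, 109.5 and 83.4 FPKM in Mettl3 OE and 89.6, 85.5 and 75.9 FPKM in Control OE (log2 difference 0.23, SE 0.11, adjusted p = 0.148). After median-ratio scaling both passed, at 0.21 and 0.34 (adjusted p = 0.0283 and 0.0337), under the fold threshold. Whether Cdkn1a and Cdkn2a passed thus rests on the scaling, and neither was called in either scaling. Of 26 p53 targets 0 passed as higher and 4 as lower, a share near the 12.2% of all genes, and 4 and 2 after median-ratio scaling, so that the balance of the list turned with the scaling.

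Immediate-early genes, which respond to growth factors and stress within minutes, passed as higher in 6 of 30 cases and as lower in 0. Their median was 0.09, and 10 and 0 passed after median-ratio scaling. For this and the next lists, the shares of all genes were 2.73% higher and 12.2% lower (9.67% and 9.75% after that scaling). Ier3, Cyr61, Ctgf and Maff had log2 differences of 0.36, 0.41, 0.37 and 0.33 (adjusted p = 0.00852, 0.0117, 0.0162 and 0.0152). Cyr61, a matrix protein and YAP target, had 194, 192.8 and 178.7 FPKM in Mettl3 OE, against 129.1, 158.8 and 137.6 FPKM in Control OE, with no overlap. Of 34 interferon-stimulated genes 3 passed as higher and 0 as lower with a median of 0.19. After median-ratio scaling 4 and 0 passed, the higher count near the share of all genes. The largest difference of those that passed was in Ifi205, a DNA-sensing protein, at 0.47 (SE 0.08, adjusted p = 0.00249). The summed FPKM of the interferon list overlapped between the groups, at 450.6, 555 and 424.6 in Mettl3 OE and 492.8, 461.3 and 442.8 in Control OE. Mettl3 OE replicate 2 stood highest, as for Isg15, a ubiquitin-like protein chosen after its values were seen, at 13.9, 26.2 and 13.5 FPKM in Mettl3 OE and 11.4, 7.70 and 6.29 FPKM in Control OE. Of the glycolysis and hypoxia genes 4 of 29 passed as higher and 1 as lower, a count that grew to 13 and 1 after median-ratio scaling, and the exception, Slc2a3, a neuronal-type glucose transporter, fell by 0.53 (SE 0.09, adjusted p = 0.00187) in the same libraries in which Bnip3, a mitophagy receptor, rose by 0.40 (SE 0.10, adjusted p = 0.0135).

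Epithelial genes were higher in part. Of 34 tested, 8 passed as higher and 0 as lower, with a median of 0.08, and 16 and 0 after median-ratio scaling. For the lists of this paragraph, the shares of all genes were 2.73% higher and 12.2% lower (9.67% and 9.75% after that scaling). Crb3, a polarity protein of the apical membrane, had 15.67, 17.92 and 15.97 FPKM in Mettl3 OE, against 11.99, 12.04 and 10.95 FPKM in Control OE (log2 difference 0.47, SE 0.08, limma adjusted p = 0.00236). Of 10 S100 genes, calcium-binding proteins many of which are epidermal, 5 passed as higher and 0 as lower with a median of 0.44 (6 and 0 after median-ratio scaling), and S100a14 had 68.0, 85.9 and 80.3 FPKM in Mettl3 OE, against 49.2, 51.4 and 46.8 FPKM in Control OE (log2 difference 0.65, SE 0.09, adjusted p = 0.000752). Sprr1a, a cornified-envelope precursor, had 141, 191.3 and 178.8 FPKM in Mettl3 OE, against 101.2, 96.6 and 104.7 FPKM in Control OE (log2 difference 0.74, SE 0.12, adjusted p = 0.00129). Of 24 keratinocyte genes 2 passed as higher and 2 as lower with a median of -0.18, and 4 and 1 after median-ratio scaling with a median of -0.09.

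The genes with the largest increases other than Mettl3 came from several tissues. Fabp7, the brain fatty acid-binding protein, had 27.4, 34.6 and 27.4 FPKM in Mettl3 OE, against 14.5, 12.4 and 12.64 FPKM in Control OE (log2 difference 1.11, SE 0.11, limma adjusted p = 3.85e-05). Tnnt2, the cardiac troponin T, had 20.5, 20.6 and 21.8 FPKM in Mettl3 OE, against 9.89, 10.2 and 10.1 FPKM in Control OE (log2 difference 0.99, SE 0.09, adjusted p = 1.39e-05). Ces2f, a carboxylesterase, had 22.8, 29.4 and 25.7 FPKM in Mettl3 OE, against 11.1, 12.8 and 9.27 FPKM in Control OE (log2 difference 1.17, SE 0.13, adjusted p = 0.000237). Every Mettl3 OE library exceeded every Control OE library in these genes, by about the same factor, and the replicates of Tnnt2 were the closest together.

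Cyp11a1, which starts steroid synthesis from cholesterol, rose by 0.88 (SE 0.11, adjusted p = 0.000266), with 15.7, 18.5 and 17.0 FPKM in Mettl3 OE and 8.42, 8.32 and 9.79 FPKM in Control OE. Wnt7a, a secreted Wnt ligand of epithelia, rose by 0.71 (SE 0.08, adjusted p = 7.9e-05), and Gabrp, a subunit of the GABA type A receptor found in epithelia, by 0.72 (SE 0.10, adjusted p = 0.00073). Krt84, a hair keratin, rose by 0.86 (SE 0.10, adjusted p = 0.000119). It had 1.69, 1.93 and 1.57 FPKM in Mettl3 OE and 0.409, 0.596 and 0.508 FPKM in Control OE. Krt84 thus reached 1 FPKM in Mettl3 OE alone, which selects for a difference. Pdzk1ip1, a small membrane protein of epithelia, rose by 0.90 (SE 0.15, adjusted p = 0.00368), and Gchfr, which regulates GTP cyclohydrolase, by 0.76 (SE 0.12, adjusted p = 0.00248). Srgn, the secretory-granule proteoglycan serglycin, rose by 0.74 (SE 0.17, adjusted p = 0.0156), a call lost without Control OE replicate 3, at 0.52, with library weights, and in fits over the 6 or all 48 libraries (adjusted p up to 0.147), and 1190005I06Rik rose by 1.08 (SE 0.24, adjusted p = 0.0248), a call lost without Mettl3 OE replicate 2 or Control OE replicate 1 or 3 (adjusted p up to 0.101). Ly6g6e and Ly6g6c rose by 0.72 each, and the kallikrein genes Klk1b27 and Klk1b26 by 0.97 and 0.94, but these last are near-identical copies whose reads the counting may have split. Snora62, a small nucleolar RNA, was listed at 21.38, 16.11 and 12.96 FPKM in Mettl3 OE and at 0 in all Mettl14 OE and Control OE libraries of the day. In the 39 libraries outside day 15 it was listed at 0 in 16, in every arm, so no fold is given.

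**Figure D3:**
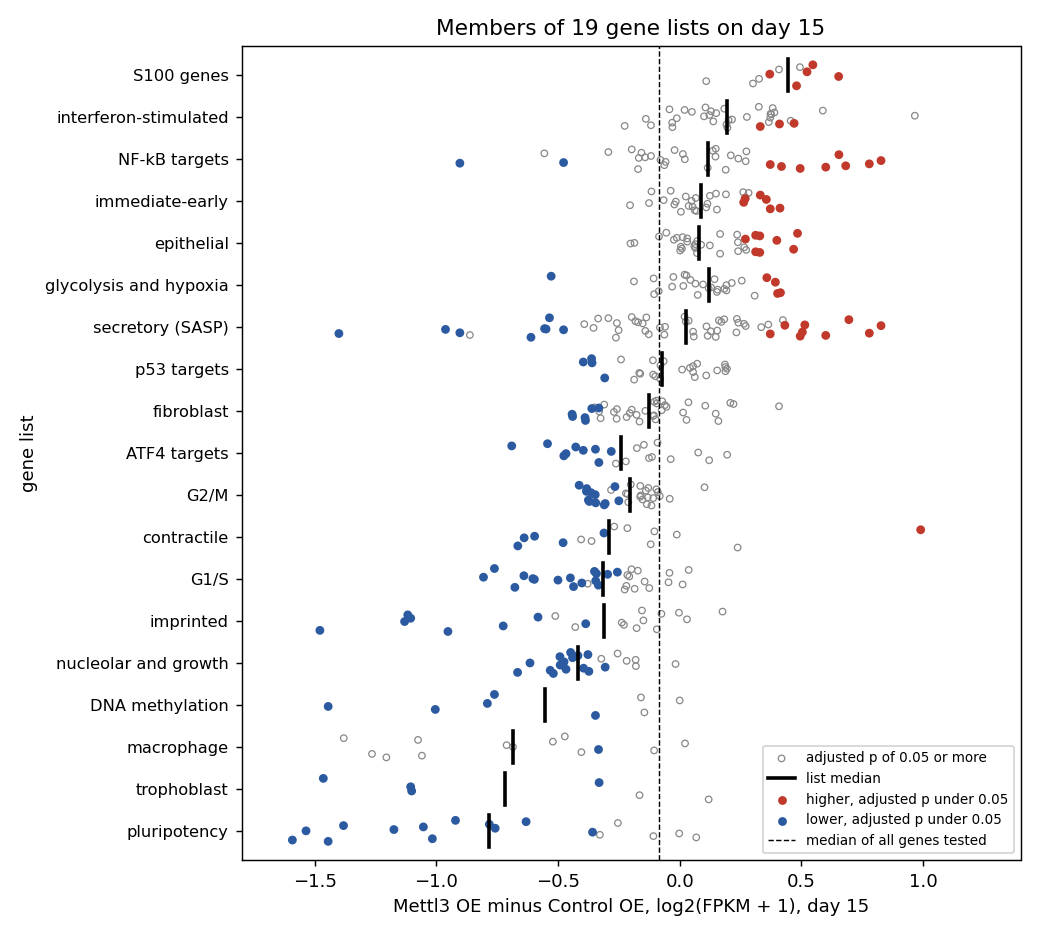
Members of 19 gene lists (rows), each point a tested gene placed by its difference Mettl3 OE minus Control OE in log2(FPKM + 1) on day 15; filled points passed adjusted p under 0.05, open points did not, thick bars mark list medians and the dashed line the median of all genes, -0.08. The pluripotency list (median -0.78) lies furthest left and the S100 list (median 0.44) furthest right, while NF-kB and SASP genes hold filled points on both sides.

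Genes of growth and division were lower as groups by small amounts. Of 21 nucleolar and growth genes, which assemble ribosomes or make nucleotides under the control of Myc, 15 passed as lower and 0 as higher in both scalings, with a median of -0.42 (-0.33 after median-ratio scaling). Nop56, a core protein of the box C/D ribonucleoprotein, had 10.9, 14.1 and 13.6 FPKM in Mettl3 OE, against 20.49, 18.07 and 21.98 FPKM in Control OE (log2 difference -0.61, SE 0.10, limma adjusted p = 0.00154). Cad, the enzyme that begins pyrimidine synthesis, fell by 0.67 (SE 0.11, adjusted p = 0.00198). Of 30 G1/S genes 16 passed as lower and 0 as higher (11 and 0 after median-ratio scaling), and of 32 G2/M genes 12 and 0 (8 and 0). The shares of all genes were 12.2% lower and 2.73% higher (9.75% and 9.67% after that scaling). Mcm5, a subunit of the replicative helicase, had 2.60, 3.37 and 2.87 FPKM in Mettl3 OE, against 6.02, 5.27 and 6.39 FPKM in Control OE (log2 difference -0.81, SE 0.10, adjusted p = 0.000329). Cdc20, which activates the anaphase-promoting complex, fell by 0.38 (SE 0.08, adjusted p = 0.0063), less than Mcm5.

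Targets of the amino acid stress factor ATF4 passed as lower in 9 of 20 cases and as higher in 0 (7 and 1 after median-ratio scaling). Beside these and the further lists below, the shares of all genes were 12.2% lower and 2.73% higher (9.75% and 9.67% after that scaling). Slc7a5, the leucine importer, had 6.01, 6.26 and 6.26 FPKM in Mettl3 OE, against 10.1, 10.47 and 11.19 FPKM in Control OE (log2 difference -0.69, SE 0.08, limma adjusted p = 9.07e-05). Mthfd2, of mitochondrial one-carbon metabolism, fell by 0.48 (SE 0.09, adjusted p = 0.00391) and Asns, asparagine synthetase, by 0.33 (SE 0.09, adjusted p = 0.0219). In 3 further lists few members passed in either scaling, with 0 higher and 1 lower of 11 genes of the unfolded protein response (0 and 1 after median-ratio scaling), 0 and 3 of 31 Hox genes (0 and 2) and 0 and 2 of 20 proteases (2 and 2). In others the counts moved with the scaling, with 1 higher and 2 lower of 11 heat shock genes (4 and 2 after median-ratio scaling), 1 and 1 of 24 cholesterol synthesis genes (6 and 1), 0 and 2 of 11 MHC class I genes (3 and 2) and 3 and 1 of 18 genes of the TGF-beta and BMP pathways (6 and 0). In the IL-6 and STAT3 pathway 2 of 18 passed as higher and 5 as lower (4 and 4 after median-ratio scaling), the receptor subunit gene Il6st falling by 0.50 (SE 0.10, adjusted p = 0.00536) in the libraries in which Il6 rose and Lif, which encodes another ligand of that receptor, rose by 0.51 (SE 0.11, adjusted p = 0.00873).

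Markers of other cell types were read in the same way. Fibroblast genes passed as lower in 6 of 38 cases and as higher in 0, near the 12.2% of all genes, with a median of -0.12 against -0.08 for all genes (5 and 4 after median-ratio scaling, with a median of -0.02), and their summed FPKM was 7426 to 8514 in Mettl3 OE and 8638 to 9374 in Control OE. Dcn, the matrix proteoglycan decorin, had 192.1, 230.7 and 186.8 FPKM in Mettl3 OE, against 276, 276 and 273.4 FPKM in Control OE (log2 difference -0.44, SE 0.10, limma adjusted p = 0.0106). Contractile genes passed as lower in 5 of 14 cases and as higher for Tnnt2 alone, with the same counts after median-ratio scaling. All genes did so in 12.2% and 2.73% of cases (9.75% and 9.67% after that scaling). Among the lower ones was Acta2, smooth muscle actin, which fell by 0.67 (SE 0.16, adjusted p = 0.0235). Mylk, another of them, reached 1 FPKM in Control OE alone. Without the filter on low values 3 of 18 contractile genes passed as lower and 1 as higher, against 6.01% and 1.16% of all genes. The endothelial list had 2 lower of 3 tested, the neural list 1 higher (Fabp7) and 1 lower of 6, and the acute-phase list 1 higher (Saa1) and 1 lower of 9, in both scalings.

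Macrophage markers were low in level and most had a lower mean in Mettl3 OE, but few passed. Of 22 listed, 13 were tested, and 1 passed as lower and 0 as higher (3 and 0 after median-ratio scaling). Over all genes 12.2% and 2.73% did so (9.75% and 9.67% after that scaling). A lower mean in Mettl3 OE was found for 20 of the 22, where 68.3% of all genes tested had a negative log2 difference. Aif1 was listed at 0 in all 6 libraries. The summed FPKM of the list ranged over 30.3 to 36.9 in Mettl3 OE and 47.0 to 85.5 in Control OE. Lyz2, lysozyme of macrophages, had 7.68, 5.56 and 7.09 FPKM in Mettl3 OE and 19.3, 10.4 and 17.7 FPKM in Control OE, with Control OE replicate 2 the lowest of its group, and did not pass (log2 difference -1.08, SE 0.39, adjusted p = 0.119). C1qa, a complement gene of macrophages, had 2.36, 1.77 and 2.04 FPKM in Mettl3 OE and 9.07, 3.86 and 6.08 FPKM in Control OE (adjusted p = 0.0718). The lower values of the chemokine gene Ccl12 stand beside these, and the part of such cells in any difference was not tested. Without Control OE replicate 2 the calls were 68 higher and 220 lower, against 42 and 171 with all libraries.

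The comparison with Mettl14 OE shows which differences from Control OE also set Mettl3 OE apart from the other overexpressing arm. Tested directly in the same fit, 5 genes were called higher in Mettl3 OE than in Mettl14 OE (0.0418%) and 24 lower (0.201%). The higher ones were Mettl3, Snora62, Tnnt2, Ces2f and Car9, and the lower ones were led by Mettl14 itself, at 4.49, 4.93 and 4.48 FPKM in Mettl3 OE against 253.9, 227.2 and 217.7 FPKM in Mettl14 OE. Tnnt2 had 20.5, 20.6 and 21.8 FPKM in Mettl3 OE, against 9.34, 12.2 and 9.27 FPKM in Mettl14 OE (log2 difference 0.97, SE 0.09, limma adjusted p = 2.95e-05). Car9, a hypoxia-induced carbonic anhydrase, had 5.36, 4.43 and 3.54 FPKM in Mettl3 OE, against 2.98, 2.29 and 2.29 FPKM in Mettl14 OE (log2 difference 0.62, SE 0.12, adjusted p = 0.0294).

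Dppa5a was the pluripotency gene furthest apart, with 4.64, 7.41 and 4.94 FPKM in Mettl3 OE, against 21.8, 15.8 and 16.9 FPKM in Mettl14 OE (log2 difference -1.53, SE 0.16, limma adjusted p = 0.00189). Gpc3 had 4.34, 3.77 and 3.26 FPKM in Mettl3 OE, against 9.85, 11.8 and 9.71 FPKM in Mettl14 OE (log2 difference -1.26, SE 0.10, adjusted p = 5.44e-06). Dnmt3l had 0.225, 0.608 and 0.218 FPKM in Mettl3 OE, against 1.90, 1.58 and 1.69 FPKM in Mettl14 OE (log2 difference -1.02, SE 0.13, adjusted p = 0.00173). The 3 genes had no overlap between these arms. Also called lower were Tspan8, a tetraspanin, by 1.10, Pgr, the progesterone receptor, by 0.94, Adh1, an alcohol dehydrogenase, by 0.93, Olfm1, a secreted glycoprotein, by 0.88, Lbp, the lipopolysaccharide-binding protein, by 0.87, and Sfrp2 by 0.84 (adjusted p between 2.95e-05 and 0.00488).

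For most genes, a difference from Mettl14 OE was not shown. By adjusted p alone 0.134% of all genes were higher and 0.61% lower in Mettl3 OE than in Mettl14 OE, and of the 33 NF-kB targets 0 were higher and 2 lower. Both contrasts use the same Mettl3 OE libraries, so their values are given side by side and no overlap is drawn from them. Il6 had 6.87, 7.87 and 5.95 FPKM in Mettl3 OE and 4.64, 8.44 and 6.62 FPKM in Mettl14 OE, overlapping, with a log2 difference of 0.09 (adjusted p = 0.908). Cxcl2 had 11, 10.63 and 11.5 FPKM in Mettl3 OE and 9.448, 12.99 and 11.97 FPKM in Mettl14 OE (log2 difference -0.04, adjusted p = 0.934). Nanog had 0.701, 0.498 and 0.555 FPKM in Mettl3 OE, against 1.72, 0.880 and 1.38 FPKM in Mettl14 OE, without overlap but with an adjusted p of 0.177 (log2 difference -0.54, SE 0.15). Cxcl12 did pass, with 13.8, 13.3 and 10.9 FPKM in Mettl3 OE, against 19.4, 16.5 and 19.5 FPKM in Mettl14 OE (log2 difference -0.52, adjusted p = 0.021). Of the pluripotency list 3 of 17 passed as lower against Mettl14 OE, and the summed FPKM of all 27 was 60.8, 71.2 and 62.8 in Mettl3 OE and 110.5, 86.8 and 86.8 in Mettl14 OE.

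The day 15 differences were then followed in the separate libraries of earlier days, each day tested on its own, since the deposited table joins days whose FPKM sums differ. On day 12, 39 of the 40 higher genes that could be tested had the same sign and 21 passed, against 49.8% and 3.15% of all genes, and 139 of 144 lower genes had the same sign and 78 passed, against 50.2% and 2.62%. On day 9 the same sign was found for 34 of 37 higher genes, of which 19 passed, and for 105 of 128 lower genes, of which 69 passed, against 57.9% and 42.1% of all genes by sign and 5.29% and 4.09% that passed. On day 6, 25 of 34 higher genes had the same sign and 3 passed, and 78 of 105 lower genes had it and 12 passed, against 45.5% and 54.5% by sign and 1.98% and 2.57% that passed. On day 3, 8 of 21 higher genes had the same sign and 1 passed, and 40 of 64 lower genes had it and 11 passed, against 45.8% and 54.2% by sign and 3.64% and 6.11% that passed. On day 3, 2 of the higher genes and 1 of the lower genes passed in the opposite direction, and on days 6, 9 and 12 none did. A test of the Mettl3 OE effect on day 15 minus that on day 12 called 0 of 12217 genes either way with limma, with 55 higher and 730 lower at an unadjusted p under 0.05 and a smallest adjusted p of 0.0947, so no change of an effect between these days was shown for any gene.

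**Figure D4:**
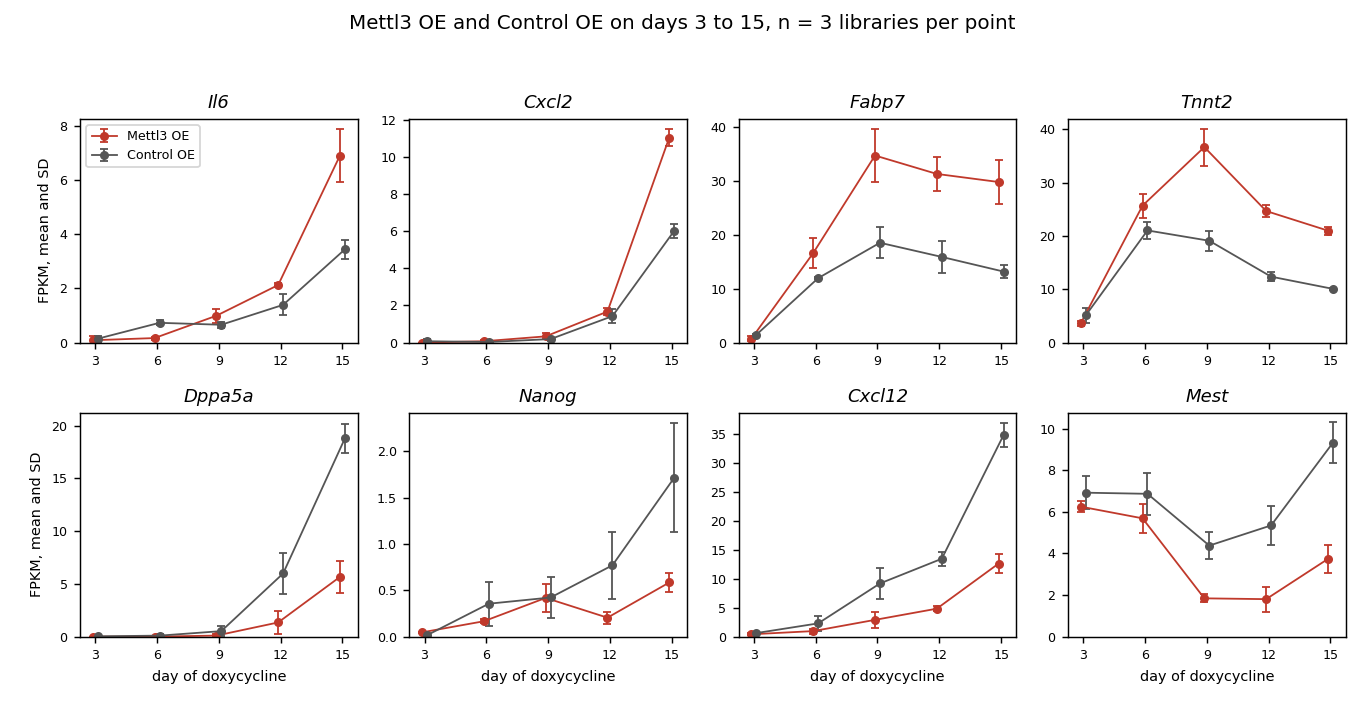
Mean FPKM and SD of 3 libraries on days 3, 6, 9, 12 and 15 for 8 genes, red for Mettl3 OE and grey for Control OE, with a linear axis per gene. Il6, Cxcl2, Dppa5a, Nanog and Cxcl12 reach their highest means on day 15 in both arms, whereas Fabp7 and Tnnt2 were already higher in Mettl3 OE on day 9 and Mest already lower.

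Individual genes followed different courses. Dppa5a was under 1 FPKM in the mean of both arms up to day 9, averaged 1.34 ± 1.06 FPKM in Mettl3 OE and 5.99 ± 1.93 FPKM in Control OE on day 12 (log2 difference -1.62, limma adjusted p = 0.0435), and 5.66 ± 1.52 FPKM and 18.8 ± 1.41 FPKM in those arms on day 15 (SD, n = 3 each). Cxcl12 was lower on day 9, at 2.90 ± 1.33 FPKM in Mettl3 OE and 9.20 ± 2.65 FPKM in Control OE (adjusted p = 0.00959), and on day 12, at 4.84 ± 0.49 FPKM in Mettl3 OE and 13.5 ± 1.23 FPKM in Control OE (adjusted p = 0.00022). Igf2 was lower on each of the 5 days, beginning with 17.2 ± 0.49 FPKM in Mettl3 OE and 35.9 ± 2.28 FPKM in Control OE on day 3 (adjusted p = 0.000121). Penk was also lower on each day, on day 9 with 27.5 ± 1.99 FPKM in Mettl3 OE and 98.3 ± 19.3 FPKM in Control OE (adjusted p = 0.000404).

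Il6 and Cxcl2 were under the filter, and so not tested, on days 3, 6 and 9, where both stayed under 1 FPKM in the mean of each arm. On day 6 Il6 stood at 0.165 ± 0.054 FPKM in Mettl3 OE and 0.728 ± 0.087 FPKM in Control OE, the other way from day 15. On day 12 Il6 averaged 2.12 ± 0.06 FPKM in Mettl3 OE and 1.39 ± 0.39 FPKM in Control OE (adjusted p = 0.128), and Cxcl2 averaged 1.67 ± 0.19 FPKM in Mettl3 OE and 1.42 ± 0.36 FPKM in Control OE (adjusted p = 0.478). The change of the effect between the days was 0.43 (SE 0.24) for Il6 and 0.63 (SE 0.17) for Cxcl2 and did not pass (adjusted p = 0.787 and 0.416). Tnnt2 was higher by 0.91 on day 9, 0.94 on day 12 and 0.99 on day 15, and Fabp7 by 0.87, 0.95 and 1.11 on those days, all passing. Of the pluripotency list 0 of 13 tested genes passed as higher and 4 as lower on day 12, and 2 of 9 as higher and 0 as lower on day 9, whereas of the epithelial list 20 of 33 passed as higher on day 9 and 4 of 34 on day 12, against 8 of 34 on day 15.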

How the data were processed

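The libraries were poly(A) RNA libraries made with a stranded mRNA kit. The FPKM values deposited by the authors came, per the labels, from TopHat2 2.1.1 alignments on the mouse build mm9 and Cufflinks 2.2.1. The deposited FPKM table holds 24013 lines for 48 libraries and no counts, so no count model was used. A line that was an exact copy was counted once, other lines with one symbol were summed, and 27 lines with a date in place of a symbol are not named. All columns mapped to a labelled sample.

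log2(FPKM + 1) of the deposited values was tested with limma 3.58.1 in R 4.3.3 (trend and robust options, Benjamini-Hochberg adjustment) over the 9 day 15 libraries. Genes needed 1 FPKM in 3 of the 6 Mettl3 OE and Control OE libraries. Just inside this filter were Fgf1 and Scube3, with a third-highest value of 1.00 FPKM each, and just outside were Xlr3b and Gsc, with 0.999 FPKM each. Fold changes on this scale understate the change of low genes. The contrast of days used the 18 libraries of days 12 and 15. Fits were tested on simulated data.

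Genes named were the targeted and reprogramming factors with selected cytokines, the 20 largest called changes in each direction, up to 6 members with the smallest adjusted p of each list described, and the 10 largest called against Mettl14 OE. Other members were named after their values were seen, and a member of the epithelial list is not reported here. The gene lists, 37 in all, and the genes to follow were chosen with earlier results of these data known. Figures were drawn with matplotlib 3.10.9 in Python 3.11.15.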

Additional observations from a re-analysis of the deposited data

How the results depend on the processing

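Genes called higher in Mettl3 OE than in Control OE numbered 42, and 74 with median-ratio scaling, 73 with quantile normalization, 72 with a pseudocount of 0.1, 65 with library weights, 71 with the replicate block and median-ratio scaling together, and 327 by adjusted p alone. Genes called lower numbered 171, and 326 with a pseudocount of 0.1, 88 with a filter at 5 FPKM, where fewer genes were tested, 108 after a correction for transcript length and GC content, and 1458 by adjusted p alone. Leaving out 1 library gave 34 to 68 higher and 135 to 220 lower, the highest of both without Control OE replicate 2 and the lowest without Mettl3 OE replicate 2 and replicate 3. Against Mettl14 OE, 9 genes were called higher with the replicate block and 3 to 9 with 1 library left out, and 20 to 34 lower. For the day 15 effect minus the day 12 effect the counts were 0 to 1 higher and 0 to 1 lower with 1 library left out, and 1 lower with the replicate block. Replicate numbers did not pair the libraries: same-numbered libraries deviated together at r = -0.17, 0.13 and -0.01, and the replicate block gave 38 higher and 171 lower. Under the block 1190005I06Rik, Tpbpa, Rhox9 and Egfl6 were not called, with adjusted p of 0.101, 0.0513, 0.107 and 0.0696. The length and GC correction and a filter on the mean of the 6 libraries, which called 42 and 161, were chosen after seeing the data.

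None of the 51 genes followed through these settings, those called with the largest changes and the genes chosen by name, changed sign. Low genes also limit the result, since 27 of the 171 lower genes and 2 of the 42 higher genes reached 1 FPKM in 1 group alone. The size of a low gene's change depends on the pseudocount, for Nanog -0.76 with 1 and -1.37 with 0.1 on the log2 scale. The median log2 difference was 0.01 in the shortest of 5 classes of transcript length and -0.11 in the longest. Depth was estimated, since the table holds no counts.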
